A study of Mus musculus with 8 samples.

Results

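The genes for the proteins of the cytosolic ribosome were examined for the accessibility of the chromatin at their ends. The set held 56 mouse genes, 36 for proteins of the large subunit (Rpl and Rplp symbols) and 20 for proteins of the small subunit (Rps symbols and Rpsa), out of 21887 protein-coding genes. An ATAC-seq peak was assigned to one of them when its centre lay within 1 kb of either end of the gene as annotated on GRCm38. This gave 53 of the 134407 peaks in the data, at 44 of the 56 genes. Accessibility had been measured in embryonic stem cells of the E14 line, a wild-type mouse line, grown on gelatin in serum with LIF. The 4 control libraries came from cells in this medium alone. The 4 paused libraries came from cells kept for 24 h in the same medium with 200 nM INK128, which inhibits the kinase mTOR. Each library was made from 50000 live cells of this 1 line, and the labels do not say whether the replicates were separate cultures, so that p-values measure the spread between these libraries, which may be technical.

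Ribosomal proteins assemble with ribosomal RNA into the large subunit, which forms peptide bonds, and the small subunit, which reads the mRNA. Their genes are transcribed at a high level in growing cells from compact promoters, and their mRNAs begin with a run of pyrimidines, the TOP motif, through which mTOR controls how well they are translated. In ATAC-seq the Tn5 transposase cuts open chromatin, so that active promoters stand out as strong peaks. The data bear on the opening of chromatin at these genes and not on their mRNA or its translation.

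Control replicate 1 was the deepest library, with 21161767 reads in peaks and a median of 91 per peak. The other 7 libraries held between 4434037 (control replicate 3) and 7238935 reads, with a median of 18 to 29 per peak. Values are the deposited ones, reads divided by 1 factor per library, in which 3 reads are worth 1.04 to 5.08. Of 7 genes that mark embryonic stem cells (Pou5f1, Sox2, Nanog, Esrrb, Zfp42, Klf4 and Tfcp2l1), all 7 had a peak within 2 kb of an end. Their peaks summed to 1823 to 2015 in the control and 2109 to 2391 in the paused libraries. Markers of other cell types were not free of signal: 3 of 4 endoderm markers had a peak (all but Gata4; sums of 323 to 379 in control and 344 to 399 in paused libraries), as had 3 of 3 mesoderm markers (381 to 435 and 497 to 529.6). So had 2 of 3 neural markers (all but Pax6; 323 to 449 and 386 to 504), 3 of 3 trophoblast markers (550.3 to 602 and 546 to 659.8), and 4 of 4 fibroblast markers (367 to 464 and 453 to 494). Their part in the results below was not tested, and in a bulk library fewer open cells and less opening per cell cannot be told apart.

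The main question was whether the ribosomal protein genes became more or less accessible in paused cells. Of the 53 peaks, 4 rose and 2 fell, and 47 did not pass the test. Peaks of Rpl7, Rps27, Rps13 and Rpl26 were higher by 25.5% to 31.4%, and peaks beyond the far ends of Rpl15 and Rpl13a were lower by 33.2% and 22.9%. The test was limma-trend on log2(value + 1) over the 127402 peaks whose values averaged 10 or more, and a peak passed at a Benjamini-Hochberg adjusted p under 0.05; all 53 passed the filter. The same test called 11% of all tested peaks higher and 2.91% lower, and 10.4% of the 16169 tested peaks within 1 kb of any protein-coding gene end higher and 1.25% lower. The count of rises is thus close to the background of gene-end peaks, and 2 falls are too few to set apart from it.

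Most of the other changes were small and positive. The log2 change was above 0 for 41 peaks and below 0 for 12, with a median of 0.15, a range of -0.60 to 0.39 and a middle 50% from 0.03 to 0.23. Of the 16169 tested gene-end peaks, 12648 were above 0 and 3521 below. The median was 0.17 over the gene-end peaks of all other genes and 0.10 over all tested peaks, so that the ribosomal protein genes did not stand out from the general shift of the data. All 4 paused values lay above all 4 control values at 9 of the 53 peaks and below them at 2. Such a separation was found upwards for 14.7% of gene-end peaks and 13% of all tested peaks, and downwards for 1.96% and 4.36%. The plot of the changes with their standard errors shows the same order of peaks, with the starts of genes on the positive side.

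**Figure D1:**
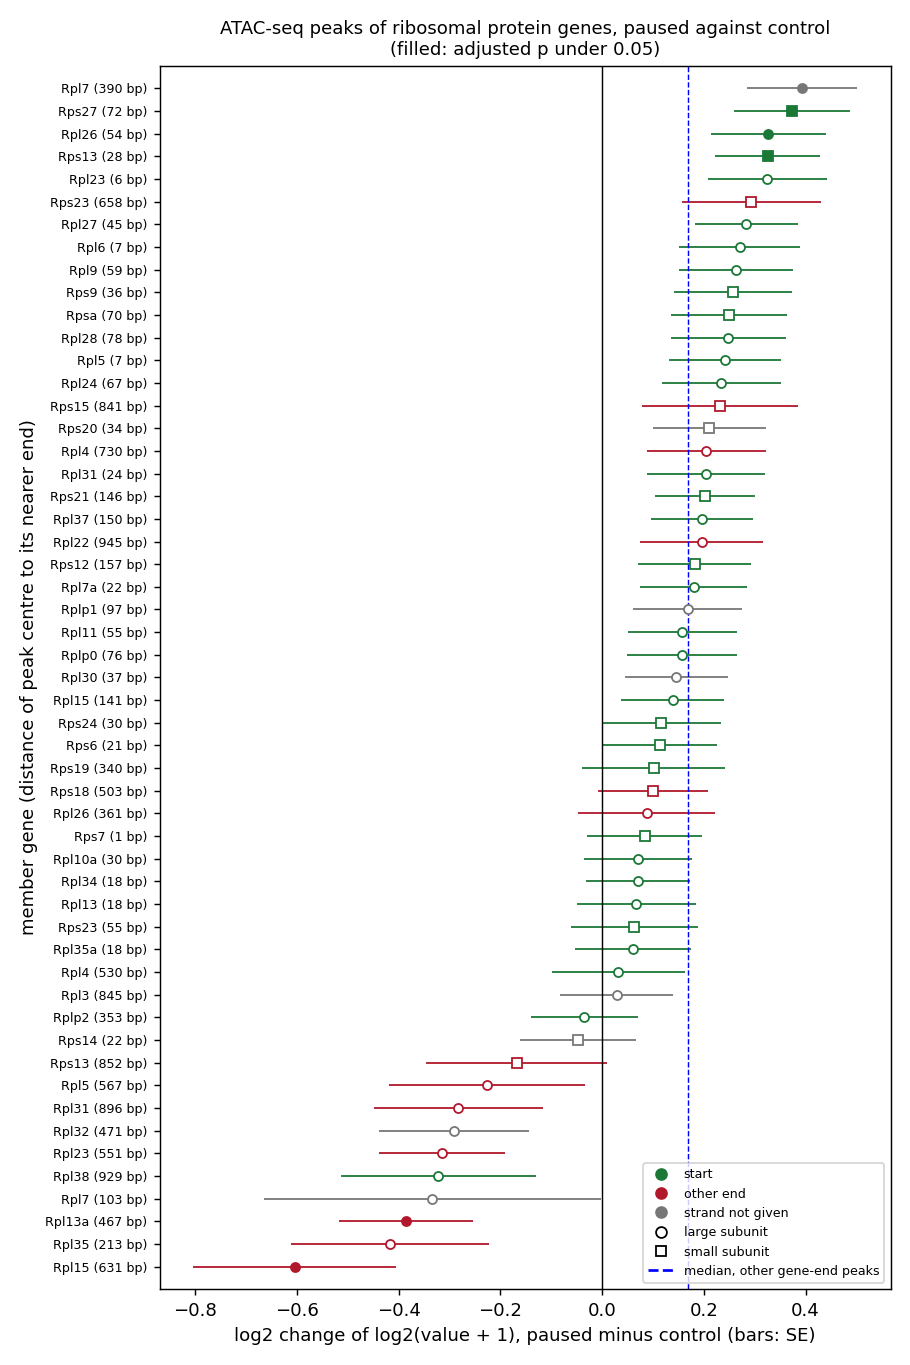
Log2 change of each of the 53 peaks (x axis, paused minus control, on the log2(value + 1) scale) with its standard error, ordered by size, with gene and distance to its nearer end on the y axis. Circles are large subunit and squares small subunit genes, green the start of the gene, red the other end and grey genes whose strand was not given; filled points passed an adjusted p of 0.05. Of the 53 peaks, 41 lie right of 0, and 7 of the 13 at the other end lie left of it.

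The rises depended on how the libraries were scaled. With each library centred on its median, with a loess correction on peak strength, or with TMM rescaling, limma-trend called 0 of the 53 peaks higher (6, 0 and 4 at an unadjusted p under 0.05) and 3, 4 and 3 lower. These settings called 3.65%, 1.73% and 3.07% of gene-end peaks higher and 1.73%, 1.95% and 1.89% lower. On the whole reads recovered from the values, edgeR with TMM called 0 higher and 3 lower, against 3.82% and 2.58% of gene-end peaks, and edgeR with the deposited factors 5 and 1, against 13.3% and 1.6%. DESeq2 called 0 and 0 (3 and 5 at an unadjusted p under 0.05), against 1.24% and 0.649%. Leaving out 1 library changed the counts as well: 1 was called higher without paused replicate 4 and 2 or 3 without any other. The number called lower was 2 without control replicate 1, paused replicate 2 or paused replicate 3, 1 without paused replicate 4 and 0 without any of the remaining 4. The authors' deposited table lists 5 of the 53 peaks as higher at an FDR under 0.05 and 0 as lower, against 10.3% and 0.784% of gene-end peaks. These 5 are the 4 named here and the start peak of Rpl27.

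Rpl7, a protein of the large subunit, had the largest rise. Its peak (chr1:16104723-16104923) lay outside the gene, 390 bp from an end whose strand was not given in the sources used here. The 4 control libraries, in the order of their replicate numbers, had values of 177, 205, 203 and 192.5, and the paused libraries 248, 257, 270.0 and 247. Every paused value lay above every control value. The means were 194.5 ± 12.98 and 255.6 ± 10.6 (SD, n = 4 each), a log2 change of 0.39 (SE 0.11, limma-trend adjusted p = 0.0118). The call held in each fit without 1 library and ended under median centring (adjusted p = 0.0541), loess correction (0.231) and TMM rescaling (0.0681) in limma-trend.

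Rps27, which encodes a zinc finger protein of the small subunit, rose at its start (chr3:90213620-90213820, centred 72 bp before it). Control values were 153, 153, 163 and 182, and paused values 199.6, 221, 195.5 and 228.5, again with no overlap. The means of 162.7 ± 13.8 and 211.1 ± 16.04 (SD, n = 4 each) gave a log2 change of 0.37 (SE 0.11, limma-trend adjusted p = 0.0233). An end of Rab13 lies within 1 kb of this peak, so the 2 genes cannot be told apart there. The call ended without control replicate 1 or 2 or paused replicate 2 or 4 (limma-trend adjusted p = 0.0666, 0.0516, 0.0652 and 0.0916).

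Rps13, a small subunit protein that takes part in the contact between the subunits, rose at its start (chr7:116334118-116334318). Control values of 313, 315, 306.5 and 288 stood against paused values of 347, 364, 441 and 387. The means of 305.8 ± 12.4 and 384.7 ± 40.6 (SD, n = 4 each) gave a log2 change of 0.33 (SE 0.10, limma-trend adjusted p = 0.0292). Paused replicate 3 was the highest, and without it the log2 change was 0.26 (adjusted p = 0.104). Without control replicate 3 or 4 or paused replicate 4 the adjusted p was 0.0613, 0.09 and 0.0803.

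Rpl26, which sits at the exit of the peptide tunnel, rose at its start (chr11:68901412-68901612). Its control values were 197, 217, 196 and 172, and its paused values 236.5, 279, 244 and 224. The groups did not overlap, with means of 195.8 ± 18.6 and 245.8 ± 23.7 (SD, n = 4 each) and a log2 change of 0.33 (SE 0.11, limma-trend adjusted p = 0.0458). This call was the least stable: it ended in every fit that left out 1 library except that without control replicate 2, with adjusted p from 0.0573 to 0.158. For Rps27, Rps13 and Rpl26 alike it also ended under each of the 3 rescalings in limma-trend, with log2 changes between 0.12 and 0.29.

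**Figure D2:**
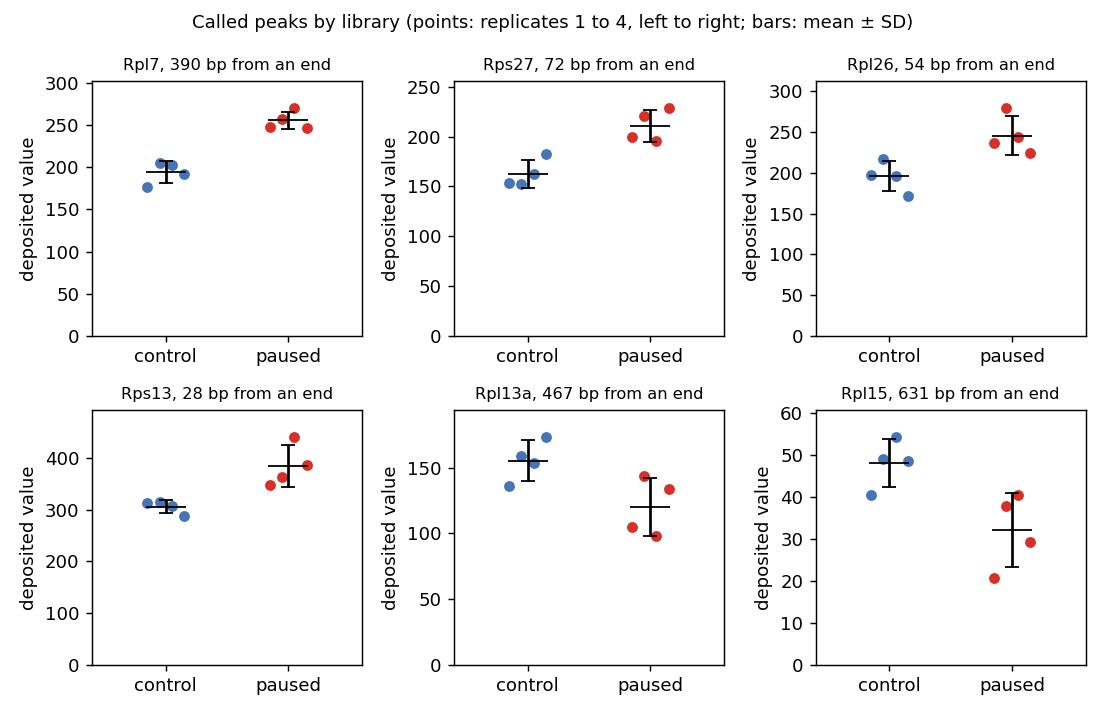
Deposited values (y axis, reads divided by the library's factor) of the 6 peaks that passed the test, in control and paused libraries (x axis). Points are replicates 1 to 4 from left to right, and bars the mean ± SD. The groups are apart for Rpl7, Rps27, Rpl26, Rps13 and Rpl15 and overlap for Rpl13a.

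The DNA under these start peaks is given because the peaks lie directly on it: for each gene the 100 bases before the annotated start and the 15 from it on, 5′ to 3′ on the strand of the gene, from the RefSeq promoters on GRCm38.p6. Capitals mark letters of the motifs described further on (an ETS/GABP core, a YY1 core, an SP1 box and the palindrome core TCTCGCGAG, each on either strand) and a pyrimidine run of at least 5 bases that begins at the start with a C. Rps27, Rps13 and Rpl26 rose, Rps6 encodes the substrate of the S6 kinase downstream of mTOR, and Rpl35a had the smallest change of the 29 peaks centred within 200 bp of an annotated start. Their windows are chr3:90213634-90213748 (minus strand), chr7:116334176-116334290 (minus), chr11:68901466-68901580 (plus), chr4:86857353-86857467 (minus) and chr16:33056353-33056467 (plus).
Rps27: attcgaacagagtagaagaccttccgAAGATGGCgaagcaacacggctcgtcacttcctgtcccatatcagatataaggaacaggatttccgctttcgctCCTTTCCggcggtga
Rps13: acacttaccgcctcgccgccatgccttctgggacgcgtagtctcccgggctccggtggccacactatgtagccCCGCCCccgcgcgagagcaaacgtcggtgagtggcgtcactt
Rpl26: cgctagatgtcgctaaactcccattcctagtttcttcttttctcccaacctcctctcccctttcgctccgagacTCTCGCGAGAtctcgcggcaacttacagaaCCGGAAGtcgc
Rps6: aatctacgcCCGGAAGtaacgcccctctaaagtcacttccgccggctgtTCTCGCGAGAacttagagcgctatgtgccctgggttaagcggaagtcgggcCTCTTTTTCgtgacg
Rpl35a: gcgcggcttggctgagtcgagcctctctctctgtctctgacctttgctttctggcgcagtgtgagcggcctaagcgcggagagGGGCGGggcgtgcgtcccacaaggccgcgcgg

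Each of these 5 windows lay entirely, 115 of 115 bases, within its peak. The pyrimidine run is present at the annotated start of Rps27 (7 bases) and Rps6 (9 bases) and absent from that of Rps13, Rpl26 and Rpl35a. Peaks that rose are thus found with and without a run at that base. Only a run beginning exactly at the annotated start was scored, and 11 of 46 promoters had one. A run at a start other than the annotated one would be missed, so these mRNAs cannot be said to lack the TOP motif.

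Both falls were beyond the far ends of genes. Rpl15, a core protein of the large subunit that is mutated in some patients with Diamond-Blackfan anaemia, had a weak peak 631 bp past its far end (chr14:18267092-18267292). Control values were 40.45, 49.0, 54.2 and 48.5, and paused values 20.8, 37.9, 40.34 and 29.3. Paused replicate 1 was the lowest, and all paused values lay below all control values, though the highest paused value was just under the lowest control value. The means of 48.0 ± 5.67 and 32.1 ± 8.90 (SD, n = 4 each) gave a log2 change of -0.60 (SE 0.20, limma-trend adjusted p = 0.037). Without paused replicate 1 the log2 change was -0.42 (adjusted p = 0.157), and the call also ended without control replicate 2, 3 or 4 or paused replicate 4 (adjusted p = 0.0706, 0.1, 0.0737 and 0.0859).

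Rpl13a, a large subunit protein also known for a role in silencing inflammatory mRNAs outside the ribosome, had a peak 467 bp past its far end (chr7:45124996-45125196). An end of another protein-coding gene lies within 1 kb of this peak, so the genes cannot be told apart there. Control values were 136, 159, 154 and 173, and paused values 105.0, 143.5, 97.75 and 134. Paused replicate 2 lay above control replicate 1, so the groups overlapped. The means of 155.6 ± 15.3 and 120.0 ± 22.05 (SD, n = 4 each) gave a log2 change of -0.39 (SE 0.13, limma-trend adjusted p = 0.0426). The call ended without control replicate 2, 3 or 4 or paused replicate 1 or 3, with adjusted p from 0.0729 to 0.146.

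The 5 strongest peaks did not pass the test. The highest was at the start of Rps21, a small subunit protein (chr2:180257133-180257333), with 421, 420.4, 455.5 and 404 in control and 439.5, 497, 534 and 491 in paused libraries. Its log2 change was 0.20 (SE 0.10, limma-trend adjusted p = 0.164), and the groups overlapped only through paused replicate 1. The peak at the start of Rpl37, a zinc finger protein of the large subunit, had means of 401.7 ± 24.3 and 461.1 ± 38.6 (SD, n = 4 each). Those 503 bp past the far end of Rps18, in the head of the small subunit, and 730 bp past the far end of Rpl4, in the wall of the peptide tunnel, had 425.6 ± 59.6 and 455.4 ± 58.2, and 378.9 ± 59.8 and 438.1 ± 81.2. Ends of other genes, Card6, B3galt4 and Snapc5, lie within 1 kb of the peaks of Rpl37, Rps18 and Rpl4. The peak 845 bp from an end of Rpl3, near the centre where peptide bonds form, had 384.5 ± 63.9 and 390.1 ± 45.2. The limma-trend log2 changes of these 4 were 0.20, 0.10, 0.20 and 0.03.

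By role, the 3 peaks of the P stalk, which recruits elongation factors to the large subunit, did not pass the test. Rplp0 had means of 267.4 ± 15.1 in control and 299.4 ± 35.01 in paused libraries, Rplp1 222.2 ± 8.02 and 250.3 ± 20.45, and Rplp2 323.9 ± 26.4 and 316.4 ± 29.8 (SD, n = 4 each). The Rplp2 peak is 353 bp before its start and near an end of Pidd1. Rpl5 and Rpl11, which carry the 5S RNA into the large subunit and bind Mdm2 when ribosome assembly fails, had 251.0 ± 31.2 and 295.8 ± 21.6, and 248.8 ± 25.1 and 276.8 ± 9.81, at their starts. Neither passed (limma-trend adjusted p = 0.136 and 0.34), and in both the groups overlapped.

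Around the peptide tunnel and its exit (Rpl4, Rpl19, Rpl22, Rpl23a, Rpl26, Rpl31 and Rpl35), 5 of 7 genes had 8 peaks, of which that of Rpl26 rose and 0 fell. The lowest of them was 213 bp inside the far end of Rpl35, near an end of Wdr38, with 49.95 ± 6.82 and 38.3 ± 13.0 (SD, n = 4 each; log2 change -0.42, limma-trend adjusted p = 0.148). Paused replicate 3, at 57.4, stood above all control values there, and the other 3 paused values lay between 28.4 and 34.6. Without that library the adjusted p was 0.027 and the log2 change -0.62.

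In the small subunit, Rps6 had control values of 248, 249.6, 283 and 275 and paused values of 255, 262, 355 and 279 at its start. The groups overlapped, with a log2 change of 0.11 (SE 0.11, limma-trend adjusted p = 0.532). Rpsa, the ribosomal protein also known as the laminin receptor precursor, had 162, 199.5, 189.7 and 199.8 against 202, 227, 245 and 218, with no overlap but a narrow gap (log2 change 0.25, SE 0.11, adjusted p = 0.137). The 5 peaks of the head of the subunit (Rps12, Rps15, Rps18, Rps19 and Rps20) had log2 changes of 0.10 to 0.23, and none of the 5 passed. Rps19, the gene most often mutated in Diamond-Blackfan anaemia, had 112.5 ± 20.7 and 120.6 ± 19.05 (SD, n = 4 each). Of 9 genes of that disease 8 had a peak. Their 11 peaks were tested, of which Rpl26 rose, Rpl15 fell at its far end and 9 did not pass. Among all gene-end peaks 10.4% were called higher and 1.25% lower, and with 11 peaks nothing is read from these counts.

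Other peaks near the extremes were as follows. The start of Rpl23, at the interface of the subunits, had 138.2 ± 6.47 and 173.7 ± 14.1 with no overlap (SD, n = 4 each; log2 change 0.33, limma-trend adjusted p = 0.0559). A peak 929 bp before Rpl38, which mouse embryos need for the translation of some Hox mRNAs, had 44.65 ± 3.94 and 36.2 ± 8.42 (log2 change -0.32, adjusted p = 0.268). A peak 103 bp from the other end of Rpl7 was the weakest of the 53, with values from 11.06 to 21.5 in control and 7.03 to 17.3 in paused libraries. At about 7 to 21 in value it rests on few reads, and its log2 change of -0.33 had an SE of 0.33.

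Position along the gene was examined next. Of the 33 peaks within 200 bp of a gene end, 31 had a log2 change above 0 (median 0.18); 3 rose and 0 fell. The 20 peaks further out divided into 10 above and 10 below 0 (median 0.00), with 1 rise and 2 falls. The same division at all other genes gave medians of 0.19 for 8687 peaks, of which 11.2% were called higher and 0.483% lower, and 0.13 for 7429 peaks, of which 9.57% were called higher and 2.13% lower. Of these 8687 near peaks 7616 were above 0, and of the 7429 outer peaks 4991. Most near peaks of other genes were thus positive too. With the annotated start in place of the nearest end, all 29 peaks centred within 200 bp of a start had a log2 change above 0, from 0.06 to 0.37 with a median of 0.20, and of these 3 rose and 26 did not pass. After loess correction on peak strength the median of the 33 peaks turned to -0.03 and under median centring it was 0.10, so that the direction depended on the scaling.

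Summed over the 33 near peaks, the value was 7791 ± 292 in control and 8848 ± 369 in paused libraries (SD, n = 4 each), 13.6% more with no overlap. Over the 20 outer peaks it was 3096 ± 222 and 3178 ± 195, 2.66% more and within the spread. The peaks of all other gene ends summed to 13.7% more, and all peaks to 11.5% more. The median deviation of the near peaks was below 0 in each control library and above 0 in each paused library, from -0.16 to -0.01 and from 0.02 to 0.13 on the log2 scale. That of the outer peaks was from -0.01 to 0.14 in control and from -0.11 to 0.06 in paused libraries, so that the groups overlapped, as the plot by library shows.

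**Figure D3:**
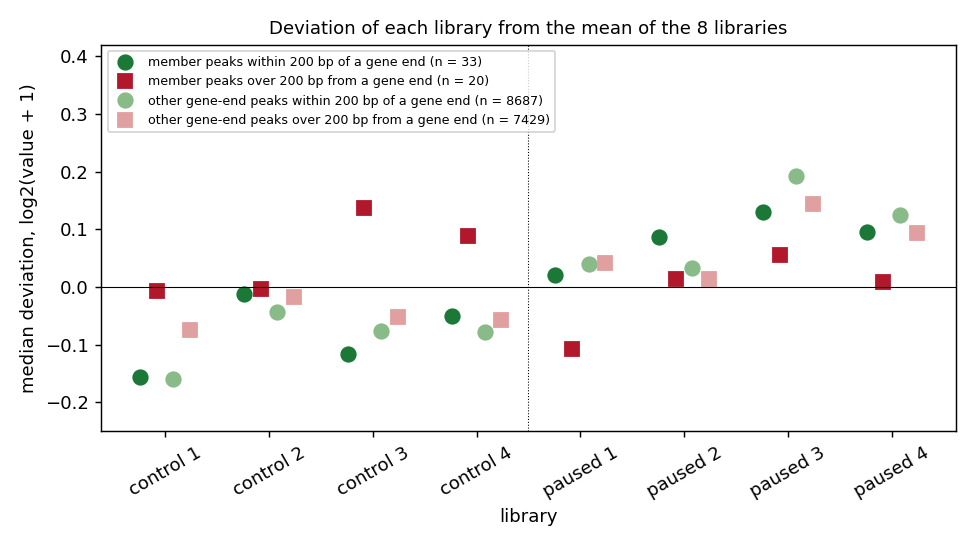
Median deviation of log2(value + 1) from the mean of the 8 libraries (y axis) in each library (x axis), for ribosomal protein gene peaks within 200 bp of a gene end (33, dark green circles) and further out (20, dark red squares), and for the same classes at all other genes (8687 and 7429, pale). The near peaks lie below 0 in the control and above 0 in the paused libraries, while the outer ribosomal protein peaks do not separate the groups.

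Strength was the next point of comparison, since the median log2 change of other gene-end peaks went from -0.19 in their weakest decile to 0.20 in their strongest. Ribosomal protein gene peaks were strong: their median mean value was 212, against 133 for other gene-end peaks. Each peak was therefore set against the median change of other gene-end peaks in its decile of mean value. The median difference was -0.06, with 18 peaks above and 35 below the median of their decile. It was -0.01 for the 33 peaks within 200 bp of a gene end (14 above, 19 below). For the 20 peaks further out it was -0.21 (4 above, 16 below). In the strongest decile, 11 ribosomal protein peaks had a median log2 change of 0.15 against 0.20 for 1605 others, and in the next decile 8 had 0.17 against 0.20. The SD between libraries of one group was 0.057 for the median of the ribosomal protein peaks themselves. It includes shifts that all peaks of a library share, so it does not measure the spread of this difference. The difference is given without a test, since peaks are not replicates. The difference stayed negative in all alternatives run for it. Median centring, TMM rescaling, loess correction and the replicate block could hardly move it. They shift peaks of like strength alike or leave the changes as they are. When 1 library was left out, the difference lay between -0.085 and -0.037.

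The gap was widest among weak peaks. All 6 ribosomal protein peaks of the third decile from below, with mean values of 40.04 to 52.9, had a log2 change below 0 (median -0.30, 1 fell and 5 did not pass). The 1611 other peaks of that decile had a median of 0.09, with 1031 above 0 and 580 below. The 6 were the far-end peaks of Rpl15, Rpl35, Rpl31, Rpl5 and Rps13 and the peak before Rpl38, so that weakness and position go together here. They can be seen below the line of medians in the plot of change against strength.

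**Figure D4:**
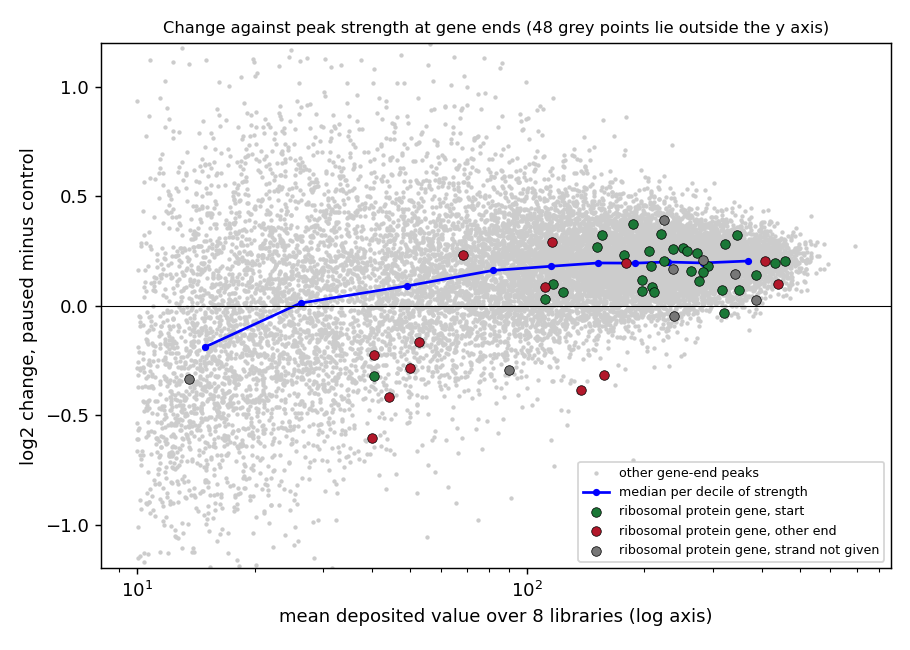
Log2 change (y axis) against the mean deposited value over the 8 libraries (x axis, log scale) for other gene-end peaks (grey), with their median in each decile of strength (blue line), and for the 53 ribosomal protein gene peaks by position (green start, red other end, grey with black edge strand not given). Strong start peaks lie near the line, and the 6 peaks with mean values of 40.04 to 52.9 lie below it.

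The subunits did not stand apart. The 36 peaks of large subunit genes had a median log2 change of 0.14, with 2 rises and 2 falls, and the 17 of small subunit genes one of 0.18, with 2 rises and 0 falls. The difference of 0.04 turned to -0.02 in both edgeR fits and lay between 0.01 and 0.09 when 1 library was left out. Within 200 bp of a gene end the medians were 0.18 for 21 large subunit and 0.19 for 12 small subunit peaks.

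The far ends were compared with the starts of the same genes. Of the 45 peaks with a known strand, 32 belonged to the start and 13 to the other end. The start peaks had a median log2 change of 0.18 (30 of 32 above 0) and those of the other end one of -0.17 (6 of 13 above 0). The latter was between -0.25 and -0.04 when 1 library was left out, nearest to 0 without control replicate 3, and 0.09 when weak peaks (a mean value under 50) were removed. Under median centring, TMM rescaling and loess correction it was -0.25, -0.27 and -0.31, and in edgeR with the deposited factors -0.09. In 8 genes both ends had 1 peak, and the ratio of the far peak to the start peak could be taken within each library. For Rpl15 the ratio was 0.113 to 0.146 in control and 0.055 to 0.093 in paused libraries, and for Rpl23 1.22 to 1.325 and 0.692 to 1.01, without overlap in either. For Rpl4, Rpl5, Rpl26, Rpl31, Rps13 and Rps23 the groups overlapped. The far peak of Rpl15 is the one already called lower. The start peak of Rpl4 lay 530 bp before its start, near an end of Zwilch. This ratio was taken at the ribosomal protein genes only. No share over other genes stands beside it, so nothing is read from it as particular to them.

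To see whether low far-end values were found at genes in general, peaks over 1 kb from any annotated start were taken, a choice made after the values were seen. Of the 8 such ribosomal protein peaks, 5 had a log2 change below 0, 1 of them called, with a median of -0.20. The far-end peaks of all other genes, 2942 in number, had a median of 0.01, with 8.02% called higher, 3.13% lower and 48.7% below 0. Limited to 277 peaks of genes no longer than the longest ribosomal protein gene (9647 bp) and of like strength, the median was 0.10, with 1.08% called lower and 32.9% below 0. With 8 peaks the comparison is a description only.

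The rule found no peak at 12 genes, namely Rpl8, Rpl12, Rpl14, Rpl18, Rpl19, Rpl23a, Rpl29, Rps2, Rps3, Rps10, Rps16 and Rps25. The nearest peak was 1069 bp (Rpl19) to 8238 bp (Rps25) away. A peak was missed by the rule rather than absent at Rpl18, Rpl19 and Rps2, whose annotated start lies inside the listed gene: a peak was centred 44, 10 and 100 bp from it. The start of Rpl22 had such a peak too, 92 bp away. Their log2 changes were 0.20, 0.16, 0.23 and 0.24 for Rpl18, Rpl19, Rps2 and Rpl22, and none of the 4 passed the test (limma-trend adjusted p from 0.143 to 0.402). For Rpl8, Rpl23a and Rpl29 no annotated start was known, so whether the rule missed a peak there could not be checked. Across all protein-coding genes 66.4% had a peak within 1 kb of an end, against 78.6% of the ribosomal protein genes.

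What the genes shared in sequence was taken from the RefSeq promoters, 250 bases before to 50 after each start, which matched 46 of the 56 by symbol. For genes with several promoters the one nearest to the start peak was used, whereas the 21263 promoters of all protein-coding genes include several for some genes. Both strands were searched, and a promoter with several or overlapping matches counted once. The letters CCGGAAG, the core bound by ETS factors such as GABP, were in 18 of 46 (39.1%), against 11.6% of those promoters, which have the same length. The palindrome core TCTCGCGAG was in 6.5% against 1.0%, the YY1 core AAGATGGC in 6.5% against 3.1%, and the NRF1 letters GCGCATGCG in 2.2% against 2.4%. The SP1 box GGGCGG was in 58.7% against 46.2%, and TATAAA in 4.3% against 12.6%. A C at the annotated start followed by at least 4 pyrimidines was found in 11 of 46 (23.9%) against 2.2%. Start peaks had a median log2 change of 0.18 with the ETS core (12 peaks) and 0.18 without it (20), of 0.14 with the pyrimidine run (7) and 0.18 without (25), and of 0.15 with the SP1 box (18) and 0.24 without (14). A match is a description of letters and not of binding.

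The genes were short, with a median length of 3310 bp (982 to 9647 bp) against 17169 bp for all protein-coding genes, and were spread over 18 chromosomes. A snoRNA gene lay inside 21 of the 56, 43 in all. Ends of other protein-coding genes lay within 1 kb of 13 of the 53 peaks. These 13 had a median log2 change of 0.10 with 1 rise and 1 fall, and the other 40 one of 0.16 with 3 rises and 1 fall.

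Related genes were examined in the same fit. A list of 23 other cytosolic ribosomal protein genes, 21 with a peak, had 29 peaks, of which 0 rose, 1 fell and 20 had a log2 change above 0. The fall was 906 bp from an end of Rps15a, a small subunit protein (log2 change -0.47, limma-trend adjusted p = 0.00845). Here too the 13 peaks within 200 bp of an end had the higher median, 0.17, against 0.00 for the 16 further out. Of 6 peaks at 5 paralogue genes, which encode variants of ribosomal proteins, that of Rpl10l rose (0.42, limma-trend adjusted p = 0.0294).

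Other genes whose mRNAs begin with the TOP motif, such as elongation factors, had 18 peaks at 15 of 16 genes, of which 2 rose and 0 fell, with a median log2 change of 0.21. Those of Hnrnpa1, an RNA-binding protein, and Eif3e, a subunit of an initiation factor, rose by 0.38 and 0.35 (limma-trend adjusted p = 0.0173 and 0.0489). The ribosomal proteins of mitochondria, which are made in the cytosol and imported, had 92 tested peaks at 75 of 78 genes. Of these 7 rose, at Mrpl2 (2 peaks), Mrpl23, Mrpl28, Mrpl33, Mrpl58 and Mrps12, and 1 fell, at Mrpl43 (log2 change -1.04), with a median of 0.18. The background for all these lists is the 10.4% of gene-end peaks called higher and 1.25% called lower. The TOP and mitochondrial counts are near it. Those of the other cytosolic ribosomal protein genes, 0 and 1 of 29, differ from it by few peaks and were not tested, so that nothing is read from them as particular to that list.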

How the data were processed

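The samples were 4 control and 4 paused ATAC-seq libraries, grouped by their titles, with table columns matched through the library names in the labels. The submitters' processing notes name FastQC, Trim Galore, Bowtie2 2.4.1, MACS3 3.0.3, DiffBind 3.16.0 and the build mm10, without roles or order; settings and the handling of the Tn5 offset are not given in the sources used here. Peaks of 1 width in 1 shared set carry a signal deposited by the authors for each library. From the values, this signal is a read count divided by 1 factor per library: 100% of values were whole multiples of 1 step within 0.02. The log2 concentrations and folds, p-values and FDR that the authors deposited were used only where their table is named. The number of per-library columns left unused was 0.

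Peaks were tested with limma-trend (limma 3.58.1, R 4.3.3) on log2(value + 1), without covariates, where the mean value was at least 10, with Benjamini-Hochberg adjustment over all 127402 tested peaks; folds of weak peaks are understated on this scale. The test for raw counts, had the values been such, was to be edgeR; with normalized values limma-trend was the planned test. The limma-trend fit was tested on simulated reads with log2 changes of 1 either way. These are larger than any change called among the ribosomal protein gene peaks, so the simulation does not show how well such changes are found. Alternatives were edgeR 4.0.16 (quasi-likelihood) and DESeq2 1.42.0 on the recovered reads, rescaling, pseudocount 0.1, other filters and distances, a replicate block and each library left out. On the recovered reads edgeR called 9082 peaks higher and 7058 lower with TMM, and 16424 and 4622 with the deposited factors. Intervals and floors of reads cover counting error only, since PCR copies are not independent.

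Genes, ends and starts came from RefSeq tables of GRCm38.p6, the assembly also called mm10; strand and start were known for the 46 genes in the promoter table. Exons were not analysed here. Of the list of other ribosomal protein genes, 1 gene is not reported here. The member genes, gene lists and comparisons were chosen with earlier results of these data known. Peaks named were those past the threshold, the 5 strongest, the 5 largest changes in each direction, and the strongest peak of Rps6, Rpsa, Rplp0, Rplp1, Rplp2, Rpl5, Rpl11 and Rps19.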

Additional observations from a re-analysis of the deposited data

Results flagged for a closer look

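Over the 53 ribosomal protein gene peaks the summed value in control replicate 1, the most deeply sequenced library, was 10221, below the 11068 to 11138 of the other 3 control libraries. The gap was 0.924 of the range of the group, over the 0.829 at which 1 of 4 values is taken as far from the rest. Of 48 groups of 4 values examined this was the only one, and about 1 in 20 would be marked without any cause. The low sum was not particular to these peaks. Over all peaks control replicate 1 had 7.3155e+06, against 7.4795e+06 to 7.654e+06 in the other control libraries. Per 1000 of the value in all gene-end peaks, the 53 peaks had 4.716 in control replicate 1. The other control libraries had 4.625 to 4.778. Without control replicate 1, 2 of the 53 peaks were called higher and 2 lower.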

How the results depend on the processing

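Of 4 peaks called higher and 2 called lower, other choices gave the following counts. Called higher were 0 under median centring, loess correction, TMM rescaling, edgeR with TMM and DESeq2, 5 in edgeR with the deposited factors, 6 with a mean value of at least 50, and 1 to 3 when 1 library was left out. Called lower were 4 under loess correction, 5 within 2 kb of a gene end, 1 within 500 bp, with a mean value of at least 50 or in edgeR with the deposited factors, 0 in DESeq2, and 0 to 2 when 1 library was left out. The median log2 change of 0.146 became -0.063 under loess correction, 0.063 under median centring, 0.044 under TMM rescaling and in DESeq2, and 0.033 in edgeR with TMM. The difference of small and large subunit became -0.016 in both edgeR fits. The median within 200 bp of a gene end became -0.025 under loess correction, and that at the other end 0.094 with a mean value of at least 50, where weak peaks are left out. The causes of the other changes were not tested.

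Among 410 values of the 23 named peaks, 336 kept their direction and side of the threshold, 48 lost and 4 gained a call, and 22 changed sign. Under loess correction the log2 changes were -0.0066 for Rps21, -0.109 for Rps18, -0.013 for Rpl37, -0.0043 for Rpl4, -0.181 for Rpl3, -0.094 for Rps6, -0.051 for Rplp0, -0.039 for Rplp1, -0.05 for Rpl11 and -0.097 for Rps19. TMM rescaling gave -0.0019 for Rps18, -0.073 for Rpl3 and -3.1e-07 for Rps19. DESeq2 gave -0.00029 for Rps18 and -0.075 for Rpl3, median centring -0.055 and edgeR with TMM -0.069 for Rpl3. With 1 library left out Rpl3 lay between -0.052 and 0.120, below 0 without control replicate 1, control replicate 2 (-0.022) or paused replicate 3 (-0.046). Rplp2 lay between -0.085 and 0.020, above 0 without control replicate 4 (0.0011) or paused replicate 4.

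A replicate block, with the replicate number as a factor, called 6 peaks higher and 3 lower. Over all tested peaks it called 17371 higher and 4623 lower, against 13958 and 3702 without it. Deviations of same-numbered libraries correlated by 0.036 to 0.133, not over 0.1 in every pair. Control replicates 1, 3 and 4 correlated best with the paused library of the same number (0.079, 0.133 and 0.0395). Control replicate 2 correlated best with paused replicate 1 (0.0703). The numbers were not taken to pair the libraries, and these values do not settle whether they do. With the 4 peaks at annotated starts inside the listed genes, an alternative chosen after seeing the data, 4 were called higher and 2 lower. At 18 reads in the median peak of the shallowest library, changes of weak peaks were not detectable unless large.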

Other observations

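Peaks 1 to 2 kb from an end of the ribosomal protein genes, outside the distance used above, numbered 18, of which 0 rose and 3 fell. Among 6062 peaks whose nearest protein-coding gene end lay 1 to 2 kb away, 8.1% were called higher and 3.46% lower. The rules differ, since some of the 18 lay nearer to an end of another gene, such as Dipk1a or Gcn1. The 18 also include the start peaks of Rpl22 and Rps2 given above. Near Rpl8, a large subunit protein, the value fell from 101.0 ± 16.3 in control to 58.9 ± 9.04 in paused libraries (SD, n = 4 each), a log2 change of -0.77 with no overlap (SE 0.15, limma-trend adjusted p = 0.000579). That peak, chr15:76907705-76907905, is 1487 bp from an end of the gene. Near Rps9, a small subunit protein that helps to keep decoding accurate, the value fell from 123.9 ± 21.2 to 81.6 ± 16.9 (log2 change -0.60, limma-trend adjusted p = 0.00486), with overlap. Near Rpl14, of the large subunit, it fell from 70.55 ± 7.78 to 51.5 ± 4.42 (log2 change -0.44, adjusted p = 0.0489), without overlap. The median over the 18 was 0.00 against 0.06 for the 6062 peaks. The 3 were noticed when the distance was widened, and no explanation was tested.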
